A study of Mus musculus with 16 samples.

Results

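The genes described here are 33 genes of glucose and lactate transport, glycolysis, pyruvate dehydrogenase control and the hypoxia response, chosen by name from the 54456 gene rows of a count table. All 33 were in the table, and 31 passed the filter on low counts, Aldoc and Vegfa being the exceptions. The RNA came from T cells of mice with the OT-I transgene, a T cell receptor for a peptide of ovalbumin presented by MHC class I, so that most of their T cells are CD8 cells. There were 4 groups of 4 libraries. HFD VAT cells came from visceral adipose tissue and HFD LN cells from lymph nodes of mice kept for 8 weeks on a high-fat diet with 60% of its calories from fat. Lean VAT and lean LN cells came from the same tissues of mice kept for 8 weeks on standard chow. All column names include Neg-OVA, a term left unexplained in the labels, and no age is given. The cells are called freshly isolated in one label and cultured overnight before a sort for T cells in another, so all groups may have passed a night in medium whose glucose and oxygen are not given. The sample titles number the libraries of each group as biological replicates, but nothing says whether a library is 1 animal or a pool. The p-values rest on the variation among libraries, some of which may be technical.

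Glycolysis splits glucose into pyruvate. Lactate dehydrogenase turns pyruvate into lactate, which leaves the cell through monocarboxylate transporters, while the pyruvate dehydrogenase complex passes pyruvate on to the mitochondria as acetyl-CoA. Pyruvate dehydrogenase kinases shut that complex off by phosphorylating it. When oxygen is scarce the prolyl hydroxylases of the Egln family no longer mark HIF-1α for destruction. HIF-1α then induces glucose transporters, most glycolytic enzymes, Pdk1 and other genes through hypoxia response elements. Their core is A or G followed by CGTG, and only the form ACGTG was counted here. Activated CD8 T cells also raise glycolysis when oxygen is plentiful.

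The bases before the transcription start are shown for the genes on which the results turn (Pdk1, Gapdh and Hif1a) and for Ldha. The first RefSeq start of Ldha held the most matches to ACGTG among those with a promoter in the table. The sequences are the 250 bases before the RefSeq start on GRCm38.p6, read 5′ to 3′ in the direction of the gene. Capitals mark ACGTG on either strand, where CACGT is the same form on the other strand and CACGTG holds it on both.
Pdk1 (chr2:71872974-71873223, + strand): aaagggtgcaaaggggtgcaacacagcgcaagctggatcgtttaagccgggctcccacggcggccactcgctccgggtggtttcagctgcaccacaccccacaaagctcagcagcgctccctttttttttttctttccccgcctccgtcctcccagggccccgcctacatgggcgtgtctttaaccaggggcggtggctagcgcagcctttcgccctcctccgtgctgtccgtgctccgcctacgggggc
Gapdh (chr6:125165774-125166023, - strand): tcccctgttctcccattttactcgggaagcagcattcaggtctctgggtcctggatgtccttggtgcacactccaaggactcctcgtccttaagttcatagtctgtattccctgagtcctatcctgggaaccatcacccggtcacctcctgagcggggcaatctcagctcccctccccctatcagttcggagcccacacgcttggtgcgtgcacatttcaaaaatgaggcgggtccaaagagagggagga
Hif1a (chr12:73907617-73907866, + strand): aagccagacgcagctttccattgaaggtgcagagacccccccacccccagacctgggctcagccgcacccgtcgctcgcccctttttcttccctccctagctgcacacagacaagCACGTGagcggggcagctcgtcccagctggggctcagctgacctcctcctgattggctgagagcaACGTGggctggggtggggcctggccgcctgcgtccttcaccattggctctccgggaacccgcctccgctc
Ldha (chr7:46845554-46845803, + strand): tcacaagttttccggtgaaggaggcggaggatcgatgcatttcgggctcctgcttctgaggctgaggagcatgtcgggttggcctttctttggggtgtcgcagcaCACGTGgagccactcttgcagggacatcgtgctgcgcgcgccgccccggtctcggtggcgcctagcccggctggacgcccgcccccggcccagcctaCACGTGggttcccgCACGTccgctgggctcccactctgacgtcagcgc
The window of Ldha held 5 matches, counted over both strands, in 3 separate stretches, and that of Hif1a held 3 in 2 stretches. The windows of Pdk1 and Gapdh held 0 matches to ACGTG, and so did the second RefSeq starts of Pdk1 and Ldha. The form GCGTG, which was not counted, does occur in the windows of Pdk1 and Gapdh. Of the 33 genes, 31 had a promoter in the RefSeq table (Slc2a3 and Bnip3l did not). Of those, 18 (58.1%) held ACGTG before at least 1 of their starts. Among genes tested, 2359 of 9314 with a promoter (25.3%) held it. By promoter the shares were 46.5% of 43 for these genes, 21.8% of 11824 for genes tested and 16.6% of all 32851 in the table, and the median GC content was 61.6%, 59.2% and 52.4% in that order. A match is a description of letters and not a binding site.

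Libraries held 40212388 to 65957407 counts, and 3 counts in a library were 0.04371 to 0.08035 CPM. Levels are CPM, read counts of a gene scaled to equal library totals (by TMM), and limits of this kind cover counting error only. Summed T cell markers lay between 9102 and 11793 CPM in the 16 libraries, and each of the 10 markers was above 3 counts in every group. The VAT and LN libraries differed in several sums of markers of other cells, whose part in the tissue differences below was not tested. The 10 B and plasma cell markers summed to 169 to 360 CPM in HFD VAT and 1717 to 2450 CPM in HFD LN, and to 85.6 to 221 CPM in lean VAT and 1565 to 2916 CPM in lean LN. Of these, Jchain, which plasma cells express, was at 3 counts or fewer in all VAT libraries. The 10 macrophage markers summed to 33.4 to 131 CPM in HFD VAT and 0.0171 to 2.43 CPM in HFD LN, and to 27.4 to 78.7 CPM in lean VAT and 0.0437 to 6.14 CPM in lean LN, with Adgre1, Cd14 and C1qa at 3 counts or fewer in all 16 libraries. The 8 dendritic cell markers summed to 74.9 to 149 CPM in HFD VAT and 235 to 566 CPM in HFD LN, and to 62.6 to 114 CPM in lean VAT and 150 to 824 CPM in lean LN. They did not move together. Cd74 was lower in VAT on both diets (log2 fold change -3.44 on HFD and -3.86 in lean mice). Flt3 was also below 0 on both diets, Itgax, Xcr1 and Clec9a were above 0 on both, and Zbtb46 changed sign. Of those tested, only Cd74 had an adjusted p under 0.05. The 6 natural killer and innate lymphoid markers summed to 2188 to 2446 CPM in HFD VAT and 1475 to 1795 CPM in HFD LN. In lean mice the sums were 1404 to 2183 CPM in VAT and 1306 to 1886 CPM in LN, and they overlapped. Ncr1 was above 3 counts only in lean VAT. The list includes Klrk1, Il7r and Gata3, which T cells also express, so these sums do not measure other cells. The 5 endothelial markers summed to 43.5 to 98.4 CPM in HFD VAT and 124 to 204 CPM in HFD LN, and to 29.005 to 67.6 CPM in lean VAT and 70.3 to 169 CPM in lean LN. Emcn was at 3 counts or fewer in all 16 libraries. Cdh5, Kdr and Vwf were so in all HFD libraries, and the HFD sums were therefore nearly all Pecam1. The 6 fibroblast markers reached at most 40.5 CPM in HFD VAT and 0.947 CPM in HFD LN, and 11.9 CPM in lean VAT and 0.952 CPM in lean LN, with Col1a2 at 3 counts or fewer in all 16. In HFD VAT all of them but Dcn were at 3 counts or fewer in every library, and the sum averaged 10.2 CPM. Summed adipocyte markers reached at most 7.83 CPM. In 3 VAT libraries, replicates 1 and 3 of HFD VAT and replicate 1 of lean VAT, many genes were missing: of those whose median reached 10 CPM over the rest of the group, 11.2% to 13.1% were at 3 counts or fewer, against 0.797% to 5.31% in the other 13.

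VAT cells were set against LN cells within each diet, which asks how T cells in fat differ from those in lymph node. Pdk1, the kinase that switches pyruvate dehydrogenase off, fell in VAT on both diets, 4.32-fold on HFD and 5.49-fold in lean mice. Gapdh, which carries out the oxidation step of glycolysis, rose in VAT on HFD. Hif1a, the oxygen-regulated subunit of HIF-1, was about 3-fold higher in VAT on both diets with no overlap between libraries, but its adjusted p-values lay just above 0.05. No other gene of the 31 passed the test. On HFD 1 rose and 1 fell, where 4.56% of all 15675 genes tested were called (2.68% as higher and 1.88% as lower), and in lean mice 0 rose and 1 fell, where 3.04% were called (2.12% and 0.919%). The median log2 fold change of the 31 was 0.26 on HFD, against -0.10 for all genes tested, and 0.17 in lean mice, against -0.00289 for all genes. Libraries of VAT and LN did not overlap for 6 of the 31 on HFD, 4 of them higher and 2 lower, where 15.2% of all genes did not overlap (7.21% higher and 8.01% lower), and for 4 in lean mice, 2 in each direction, where 12.9% did not (7.24% higher and 5.7% lower).

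Of the 3 genes of pyruvate dehydrogenase control, Pdk1 passed the test. Its level was 113, 142, 80.1 and 71.3 CPM in HFD VAT, against 611, 313, 262 and 568 CPM in HFD LN. In lean mice it was 9.75, 102, 86.2 and 95.7 CPM in VAT and 288, 468, 423 and 435 CPM in LN. The highest VAT library of either diet lay below the lowest LN library of either diet. Pdk1 was 4.32-fold lower in VAT on HFD (log2 fold change -2.11 ± 0.54 (SE), 95% interval -3.27 to -0.95, adjusted p = 0.0408) and 5.49-fold lower in lean mice (-2.46 ± 0.55, interval -3.63 to -1.28, adjusted p = 0.0232, quasi-likelihood F-test of edgeR, adjusted by Benjamini-Hochberg over all genes tested). The B and plasma cell markers given above were lower in the same libraries. In RNA of many cells fewer cells of a type and less RNA per cell cannot be told apart. The HFD call was lost when any of the 4 HFD VAT libraries or replicates 1, 2 or 4 of HFD LN was left out (adjusted p from 0.0581 to 0.109), without a filter on low counts (0.0736) and with limma's voom (0.0772). The lean call was lost without replicate 2, 3 or 4 of lean LN or 3 or 4 of lean VAT (0.0522 to 0.0638). It was also lost in a fit of the lean groups alone (0.105). With replicate numbers as a block both calls were lost (adjusted p = 0.0874 on HFD and 0.0610 in lean mice). Without the 3 VAT libraries with many missing genes both calls held (-2.05, adjusted p = 0.0192 on HFD and -2.12, 0.00751 in lean mice).

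The other genes of this step did not pass. Pdk3, a second kinase of the complex, averaged 36.6 ± 24.6 CPM in HFD VAT and 52.9 ± 35.9 CPM in HFD LN (SD, n = 4 each), and 31.6 ± 24.5 CPM in lean VAT and 36.6 ± 9.66 CPM in lean LN, with 0 counts in replicate 3 of HFD VAT and replicate 1 of lean VAT. Pdha1, which encodes the catalytic subunit that these kinases phosphorylate, averaged 68.8 ± 55.7 CPM in HFD VAT and 102 ± 25.1 CPM in HFD LN, and 71.0 ± 17.8 CPM in lean VAT and 97.0 ± 43.3 CPM in lean LN. The 95% intervals of their log2 fold changes between tissues ran from -3.95 to 3.20 for Pdk3 and from -3.01 to 1.98 for Pdha1 over the 2 diets, so these libraries bound neither closely.

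**Figure D1:**
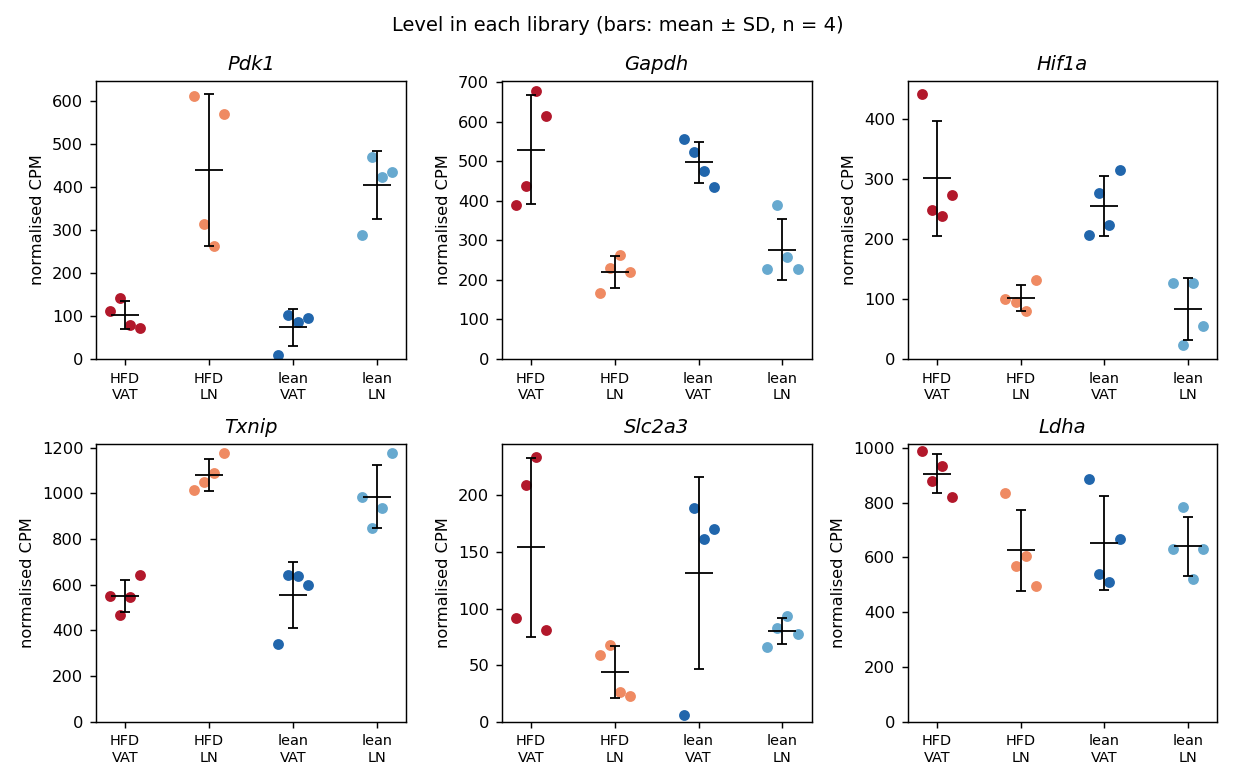
Normalised CPM (linear axis) of 6 genes in each library, by group; points are libraries and bars the mean ± SD of 4. Pdk1 lay between 9.75 and 142 CPM in VAT and between 262 and 611 CPM in LN, while Hif1a and Gapdh were higher in every VAT library than in every LN library of the same diet.

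Gapdh was the one glycolytic enzyme that passed the test. Its level was 388, 437, 677 and 615 CPM in HFD VAT, against 167, 229, 262 and 221 CPM in HFD LN. In lean mice it was 555, 522, 475 and 435 CPM in VAT, against 229, 389, 258 and 228 CPM in LN. No VAT library overlapped the LN libraries of its diet, although replicate 2 of lean LN reached the level of the lowest HFD VAT library. Gapdh was 2.41-fold higher in VAT on HFD (1.27 ± 0.22, interval 0.79 to 1.75, adjusted p = 0.00358) and 1.80-fold higher in lean mice (0.85 ± 0.22, interval 0.38 to 1.32, adjusted p = 0.0556), which missed the threshold. The HFD call held in all 17 alternatives. The lean value passed in 4 of 17 alternatives, and in the rest its adjusted p reached 0.174. It passed without replicate 2 of lean LN (adjusted p = 0.0152), with DESeq2 (0.00565) and with voom (0.00178). A filter of 5 CPM in 4 libraries gave 0.0443. The difference between the 2 tissue effects, which is the difference between the diet effects, was 0.42 ± 0.31 (adjusted p = 1.00).

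The enzymes around Gapdh did not follow it past the test. Eno1, the enolase of most tissues, which makes phosphoenolpyruvate, averaged 741 ± 111 CPM in HFD VAT and 747 ± 74.5 CPM in HFD LN, and 622 ± 65.2 CPM in lean VAT and 671 ± 99.5 CPM in lean LN. Its intervals were narrow, -0.31 to 0.29 on HFD and -0.41 to 0.19 in lean mice, and so exclude a change of the size of Gapdh's on HFD. Pkm, which encodes the pyruvate kinase of the last step, was 604, 538, 600 and 516 CPM in HFD VAT, against 474, 462, 287 and 417 CPM in HFD LN, with no overlap, and 440, 657, 516 and 546 CPM in lean VAT, against 418, 280, 329 and 515 CPM in lean LN, with overlap. Its fold changes were alike on both diets (0.46 ± 0.20, adjusted p = 0.233, and 0.48 ± 0.20, adjusted p = 0.289), and the lean one passed with voom (0.0391).

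Tpi1, which interconverts the triose phosphates, averaged 71.7 ± 29.3 CPM in HFD VAT and 38.2 ± 11.8 CPM in HFD LN, and 71.5 ± 52.5 CPM in lean VAT and 41.4 ± 15.0 CPM in lean LN (adjusted p = 0.379 and 0.620). Pgk1, the first ATP-making enzyme of the pathway, averaged 71.2 ± 24.0 CPM in HFD VAT and 53.7 ± 22.7 CPM in HFD LN, and 61.2 ± 42.5 CPM in lean VAT and 65.6 ± 21.8 CPM in lean LN. Pgam1, the phosphoglycerate mutase, averaged 47.6 ± 34.6 CPM in HFD VAT and 53.5 ± 20.7 CPM in HFD LN, and 65.8 ± 17.7 CPM in lean VAT and 34.5 ± 12.4 CPM in lean LN. In each of these the groups overlapped. Eno3, the enolase of muscle, lay between 0 and 17.3 CPM in HFD VAT and between 0.0441 and 61.8 CPM in HFD LN, and between 0 and 48.0 CPM in lean VAT and 9.70 and 53.9 CPM in lean LN. Aldoc, the brain aldolase, exceeded 3 counts in 1 HFD LN library (13.6 CPM) and 1 lean VAT library (5.27 CPM) of the 16. Rows of pseudogene or duplicate copies took 0.147% to 0.437% of the counts on Gapdh and its copies, at most 2.20% for Pgk1, 0.842% to 1.51% for Ldha, 1.00% to 1.96% for Eno1, 2.64% to 7.49% for Pgam1 and 7.66% to 12.5% for Bnip3l.

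**Figure D2:**
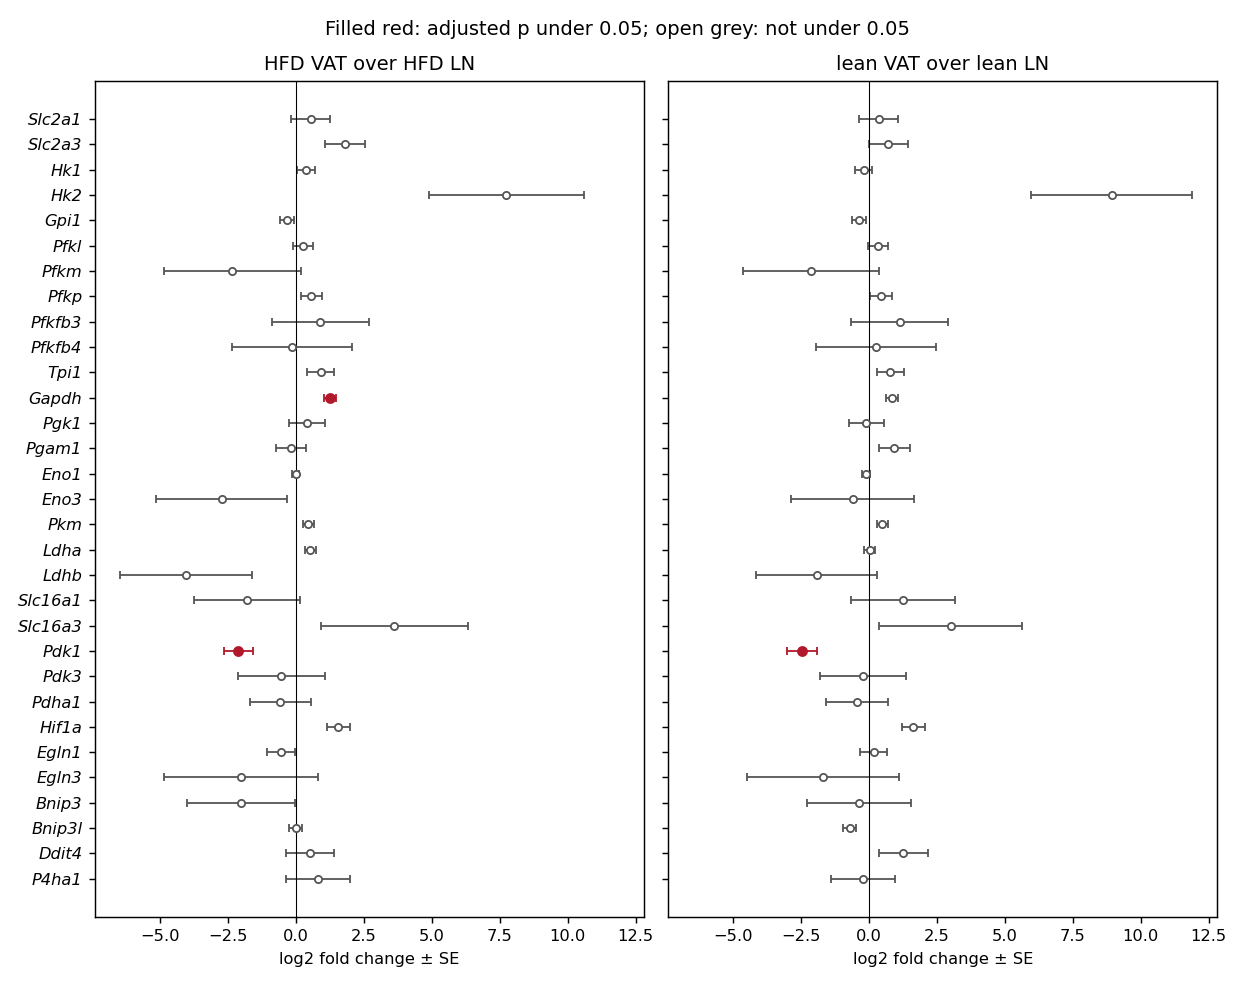
Log2 fold change ± SE (edgeR) of VAT over LN for the 31 genes tested, on HFD at the left and in lean mice at the right, in the order of the list. Filled red points passed an adjusted p of 0.05: Gapdh (1.27) and Pdk1 (-2.11) on HFD and Pdk1 (-2.46) in lean mice; Hk2 lies far to the right with an SE near 3.

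Among the oxygen-sensing genes, Hif1a separated VAT from LN. Its level was 442, 248, 239 and 273 CPM in HFD VAT, against 99.7, 94.8, 80.1 and 132 CPM in HFD LN. It was 207, 276, 222 and 315 CPM in lean VAT, against 126, 24.1, 126 and 54.2 CPM in lean LN. Every VAT library of either diet was above every LN library of either diet. The fold was 2.96 on HFD (1.56 ± 0.42, interval 0.65 to 2.47, adjusted p = 0.0529) and 3.09 in lean mice (1.63 ± 0.42, interval 0.71 to 2.54, adjusted p = 0.0568). Of 17 alternatives the HFD value passed in 5 and the lean value in 4, and in the rest adjusted p reached 0.215 and 0.191. Both values passed with upper quartile normalisation (0.0432 and 0.0416) and with a filter of 5 CPM in 4 libraries (0.0334 and 0.0288). They also passed with DESeq2 (0.00386 and 0.00800) and with voom (0.0223 and 0.00484). The HFD value passed as well with only its 2 groups in the fit (0.0141). Summed macrophage markers were higher in the same VAT libraries, by the values given above.

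The hydroxylases that act on HIF-1α did not pass. Egln1, the main one, averaged 30.4 ± 20.7 CPM in HFD VAT and 44.8 ± 10.1 CPM in HFD LN, and 50.1 ± 20.1 CPM in lean VAT and 44.5 ± 6.22 CPM in lean LN. Egln3, itself a hypoxia-induced gene, lay between 0 and 8.15 CPM in HFD VAT and between 0 and 21.8 CPM in HFD LN, and between 0 and 10.2 CPM in lean VAT and 0 and 25.8 CPM in lean LN.

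Of the 5 hypoxia targets outside glycolysis, 4 were tested and 0 passed. Bnip3l, a mitophagy receptor, was 170, 265, 384 and 296 CPM in HFD VAT, against 299, 254, 285 and 283 CPM in HFD LN, so that the VAT libraries lay on both sides of LN. In lean mice it was 181, 134, 236 and 191 CPM in VAT and 304, 290, 393 and 234 CPM in LN, and the ranges overlapped between 234 and 236 CPM. The lean fold change was -0.72 ± 0.24 (adjusted p = 0.159, with 0.0136 by DESeq2 and 0.0325 by voom). The row of its pseudogene took 7.66% to 12.5% of the counts on the pair. Bnip3, its paralogue, was at 0, 0, 0 and 4.96 CPM in HFD VAT, against 2.63, 4.30, 5.37 and 7.91 CPM in HFD LN, and between 0 and 3.52 CPM in lean VAT and 2.45 and 4.98 CPM in lean LN. Its HFD fold change missed the test (adjusted p = 0.716) and passed without replicate 4 of HFD VAT (0.0167), when all remaining VAT libraries were at 0 counts. P4ha1, a collagen prolyl hydroxylase, averaged 46.4 ± 20.3 CPM in HFD VAT and 26.6 ± 8.36 CPM in HFD LN, and 22.1 ± 18.8 CPM in lean VAT and 26.02 ± 8.64 CPM in lean LN. Ddit4, an mTORC1 inhibitor, never exceeded 1.96 CPM. Vegfa, the angiogenic growth factor, was above 3 counts in 2 HFD LN libraries (1.30 and 5.31 CPM) and in none of the other 14.

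The glucose and lactate carriers also missed the test. Slc2a3, which encodes the high-affinity glucose transporter GLUT3, was 91.4, 209, 234 and 81.1 CPM in HFD VAT, against 58.9, 68.0, 26.1 and 22.8 CPM in HFD LN, with no overlap (1.81 ± 0.74, adjusted p = 0.198). In lean mice it was 5.61, 189, 161 and 170 CPM in VAT and 66.2, 82.5, 93.6 and 77.9 CPM in LN, where 3 VAT libraries were above all of LN and replicate 1 was below (0.72 ± 0.72, adjusted p = 0.872). Slc2a1, which encodes GLUT1, averaged 73.5 ± 19.6 CPM in HFD VAT and 50.5 ± 28.7 CPM in HFD LN, and 47.3 ± 28.6 CPM in lean VAT and 37.0 ± 21.3 CPM in lean LN. Slc16a3, the lactate exporter MCT4, was 22.2, 32.1, 16.1 and 0.0233 CPM in HFD VAT, against 0, 0, 0 and 5.74 CPM in HFD LN, and at most 8.43 CPM in lean VAT and 1.23 CPM in lean LN (adjusted p = 0.579 and 0.811). Replicates 1 to 3 of HFD VAT were above every other library of the series for this gene. Slc16a1, the transporter MCT1, was 0, 36.3, 0 and 27.0 CPM in HFD VAT, against 53.2, 31.5, 29.1 and 107 CPM in HFD LN, and averaged 40.3 ± 28.9 CPM in lean VAT and 16.9 ± 12.5 CPM in lean LN.

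Upper glycolysis showed no call. Hk1, the hexokinase found in most tissues, averaged 221 ± 74.4 CPM in HFD VAT and 170 ± 27.7 CPM in HFD LN, and 160 ± 54.9 CPM in lean VAT and 184 ± 61.9 CPM in lean LN. Hk2, the inducible hexokinase, had 0, 3, 0 and 257 counts in HFD VAT, against 1, 0, 0 and 0 in HFD LN. It had 535, 477, 0 and 9 counts in lean VAT, against 2, 0, 0 and 0 in lean LN. More than 3 counts were thus seen in 4 of 8 VAT libraries and 0 of 8 LN libraries. Summed per group and scaled by the library sizes, the ratio was 309 on HFD (95% counting interval 55.0 to 12247) and 608 in lean mice (168 to 5030), with adjusted p-values of 0.156 and 0.157 in the test over libraries and 0.0340 and 0.0240 with DESeq2. Of the 260 counts in HFD VAT, 257 were in replicate 4, and without it the fitted log2 fold change on HFD was 1.85 (adjusted p = 0.733), against 7.73 with all libraries.

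Gpi1, the phosphoglucose isomerase, averaged 230 ± 79.3 CPM in HFD VAT and 286 ± 25.0 CPM in HFD LN, and 210 ± 62.4 CPM in lean VAT and 270 ± 32.97 CPM in lean LN. Pfkl, a subunit of the phosphofructokinase that commits sugar to glycolysis, averaged 132 ± 59.1 CPM in HFD VAT and 110 ± 39.4 CPM in HFD LN, and 176 ± 78.8 CPM in lean VAT and 140 ± 21.8 CPM in lean LN. Pfkp, another subunit, averaged 257 ± 65.3 CPM in HFD VAT and 173 ± 68.9 CPM in HFD LN, and 229 ± 65.0 CPM in lean VAT and 169 ± 91.2 CPM in lean LN. For each of these 3 genes VAT and LN libraries overlapped on both diets. Pfkm, the muscle subunit, was patchy, with 12.4, 0.182, 0 and 0 CPM in HFD VAT, against 27.3, 19.6, 0.0881 and 17.3 CPM in HFD LN, and 0 to 7.03 CPM in lean VAT and 0 to 28.0 CPM in lean LN. Pfkfb3, which makes the activator of phosphofructokinase, ranged from 0.262 to 51.4 CPM in HFD VAT and 0.273 to 22.8 CPM in HFD LN, and from 1.30 to 45.7 CPM in lean VAT and 0.251 to 23.2 CPM in lean LN.

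Such gaps within a group were common. A library at 3 counts or fewer stood beside one at 5 CPM or more in the same group for 13 of the 33 genes (Hk2, Pfkm, Pfkfb4, Aldoc, Eno3, Ldhb, Slc16a1, Slc16a3, Pdk3, Pdha1, Egln3, Vegfa and P4ha1). Among the genes tested the share was 35.5% of these 31 and 36.4% of all 15675. In the 3 VAT libraries with many missing genes, 9, 12 and 9 of the 33 genes were at 3 counts or fewer, against 3 to 7 in the other 13 libraries.

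**Figure D3:**
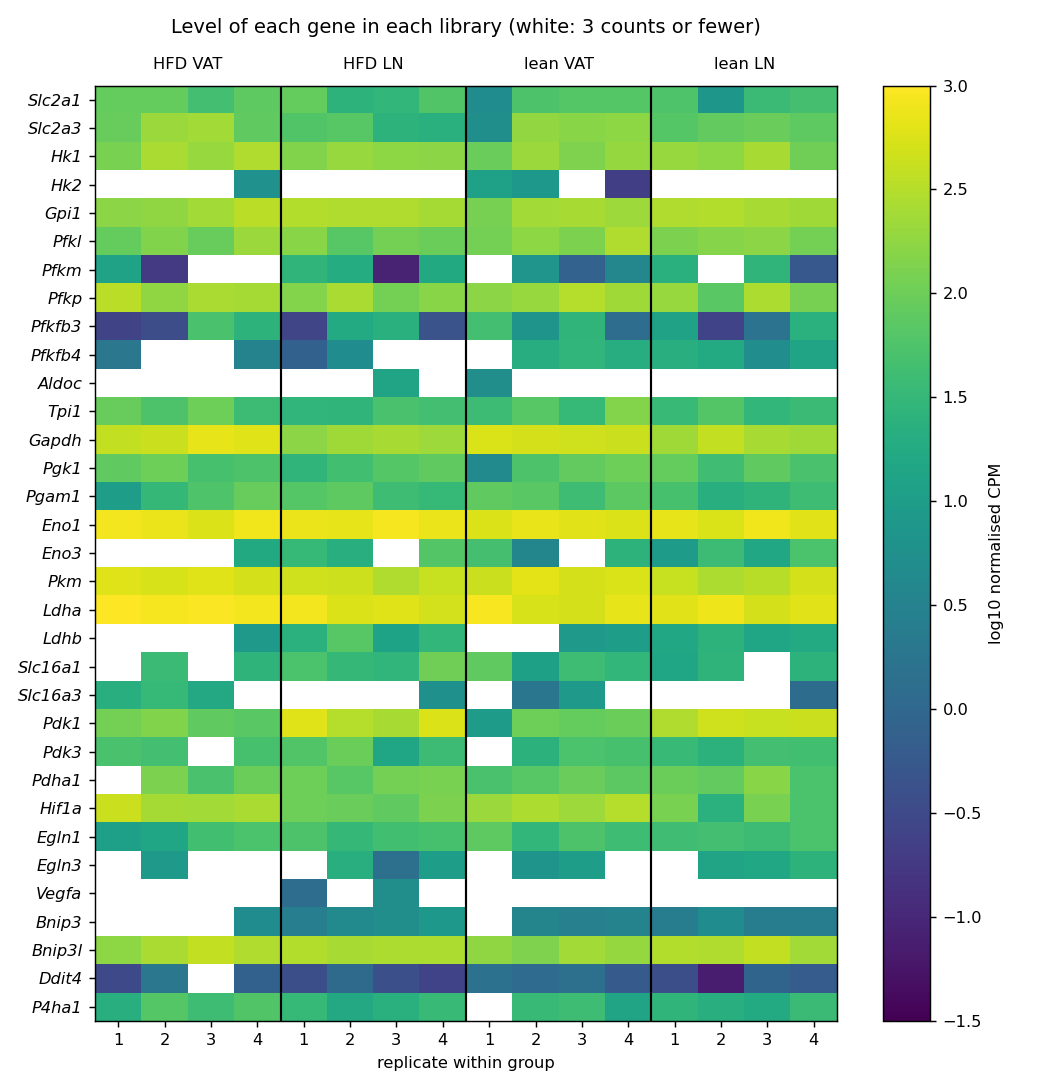
Log10 normalised CPM of the 33 genes (rows) in the 16 libraries (columns, by group and replicate), with 3 counts or fewer in white. Eno1, Ldha, Pkm and Gapdh had counts in every library, while Hk2 was white in all LN libraries and Ldhb in 3 of 4 HFD VAT libraries.

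The subunits of lactate dehydrogenase did not pass the test, though one of them separated the libraries of the tissues. Ldhb, which encodes the H subunit of heart-type enzyme, was 0, 0, 0.0268 and 8.20 CPM in HFD VAT, against 23.9, 68.5, 12.8 and 30.0 CPM in HFD LN. It was 0, 0, 8.54 and 10.7 CPM in lean VAT, against 15.4, 26.01, 13.7 and 17.9 CPM in lean LN. VAT lay below LN in every library of both diets, but with 2 libraries at 0 in each VAT group the fold changes had wide errors (-4.04 ± 2.44, adjusted p = 0.436, and -1.92 ± 2.23, adjusted p = 0.907). The row of its pseudogene Ldhb-ps held 1, 0, 0 and 20 counts in HFD VAT, against 85, 218, 36 and 66 in HFD LN, and 0, 0, 39 and 28 counts in lean VAT, against 40, 74, 34 and 71 in lean LN. With both rows summed, VAT reached at most 8.67 CPM on HFD and 11.4 CPM in lean mice, and LN was at least 13.6 CPM on HFD and 14.4 CPM in lean mice. Ldha, which encodes the M subunit and favours lactate, was 990, 878, 935 and 822 CPM in HFD VAT, against 835, 570, 604 and 494 CPM in HFD LN (0.53 ± 0.20, adjusted p = 0.155, and 0.0300 with DESeq2), so that 1 LN library reached into the VAT range. In lean mice it was 887, 540, 510 and 669 CPM in VAT, against 632, 783, 521 and 631 CPM in LN (0.02 ± 0.20, adjusted p = 0.999).

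Ratios of 2 counts within a library do not depend on the normalisation. The log2 ratio of Ldha to Ldhb counts, with 0.5 added to each, was 16.47, 16.24, 14.51 and 6.65 in HFD VAT, against 5.13, 3.06, 5.56 and 4.04 in HFD LN. In lean mice it was 16.26, 15.98, 5.90 and 5.96 in VAT and 5.35, 4.91, 5.24 and 5.14 in LN. VAT lay above LN on both diets without overlap, in lean mice by a margin of less than 1 log2 unit for replicates 3 and 4. VAT still lay above LN with 5 added to each count. The ratios from 14.51 to 16.47 are of VAT libraries with 0 or 1 counts of Ldhb, so their size depends on the added count. With 5 added, replicate 1 had 13.15 in HFD VAT and 12.94 in lean VAT. The ratios are not corrected for gene length and describe the balance of the subunits, with no test. The ratios Hk2 to Hk1, Slc2a1 to Slc2a3, Slc16a3 to Slc16a1, Pfkp to Pfkl and Pdk1 to Pdk3 overlapped between the groups in each of the 4 comparisons. For Pdk1 to Pdk3 between tissues, the overlap came from the VAT libraries with 0 counts of Pdk3, replicate 3 on HFD (12.55) and replicate 1 in lean mice (9.75). The other HFD VAT libraries had 1.12, 1.65 and 0.53, below the 1.66 to 4.18 of HFD LN, and the other lean VAT libraries had 2.06, 0.71 and 0.97, below the 3.10 to 4.27 of lean LN. The mean log2 ratio of Slc16a3 to Slc16a1 was 2.87 ± 9.74 in HFD VAT and -9.96 ± 3.86 in HFD LN (SD, n = 4 each), with 0 counts of Slc16a1 in replicates 1 and 3 of HFD VAT and 1 count of Slc16a3 in replicate 4.

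**Figure D4:**
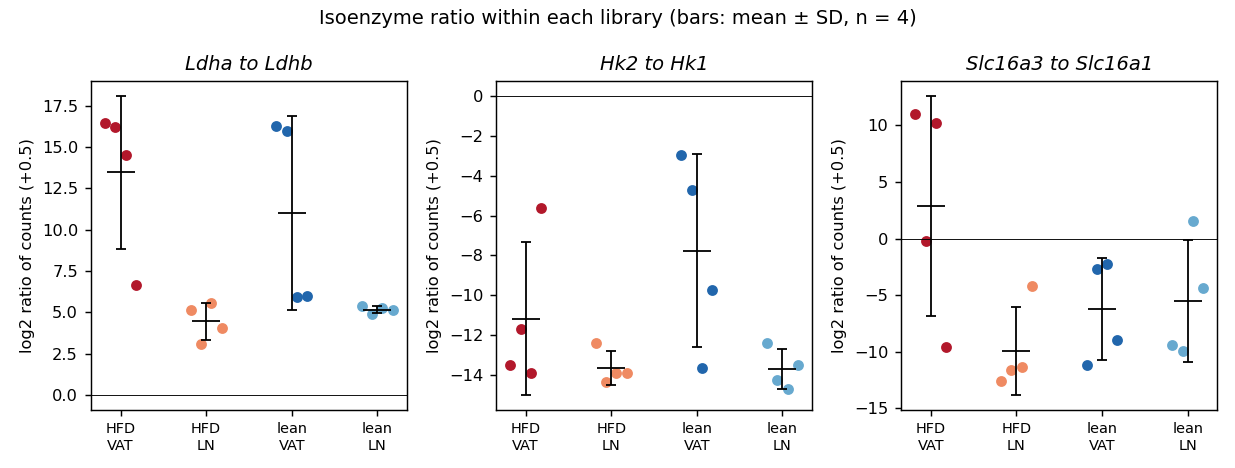
Log2 ratio of counts (0.5 added to each) of 3 pairs of isoenzymes or carriers within each library, by group; points are libraries and bars the mean ± SD of 4. The Ldha to Ldhb ratio lay between 5.90 and 16.47 in VAT and between 3.06 and 5.56 in LN, while both other ratios overlapped between tissues.

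Lists of related genes held 1 further call. Txnip, which encodes a protein that restrains glucose uptake and is itself induced by glucose, fell in VAT on both diets. It was 549, 469, 548 and 641 CPM in HFD VAT, against 1014, 1048, 1088 and 1176 CPM in HFD LN, and 341, 644, 636 and 600 CPM in lean VAT, against 986, 847, 936 and 1176 CPM in lean LN. Every VAT library lay below every LN library. The decrease was 1.96-fold on HFD (-0.97 ± 0.18, adjusted p = 0.00564), which held in all 17 alternatives, and 1.78-fold in lean mice (-0.83 ± 0.18, adjusted p = 0.0196). The lean call was lost without replicate 1 or 4 of lean LN (0.0521 and 0.0761) and in a fit of the lean groups alone (0.125). Of the 14 upstream regulators of glycolysis tested, Txnip alone passed, in the tissue comparisons. There 4.56% of all genes tested were called on HFD and 3.04% in lean mice. None of the 19 other glycolysis and pyruvate genes tested, the 26 other hypoxia pathway genes or the 7 pentose phosphate genes passed in any of the 5 comparisons. In the comparisons of diet at most 0.0574% of all genes were called. At these shares lists of such sizes would hold few calls or none. The median log2 fold changes of the 3 lists for VAT over LN were -0.22, 0.22 and -0.69 on HFD and -0.26, 0.21 and 0.13 in lean mice, in that order, against -0.10 and -0.00289 for all genes.

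HFD was then set against the lean diet within each tissue, which asks what the diet did to these cells. None of the 31 genes passed in VAT, where 0.0574% of all genes were called, or in LN, where 0 of 15675 were (edgeR, with 236 of all genes called by DESeq2). DESeq2 also called none of the 31 in either tissue. A different effect of diet in VAT than in LN was called for none of the 31 and for 0.0191% of all genes. At an unadjusted p under 0.05 there were 2 of these genes in VAT (8.08% of all genes), 0 in LN (3.37%) and 0 for the difference (6.16%). HFD and lean libraries did not overlap for 0 of the 31 in VAT, where 3.22% of all genes did not overlap, and for 2 in LN, 1 higher and 1 lower, where 2.26% did not (1.07% higher and 1.19% lower).

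The 2 genes in VAT were Ldha and Bnip3l, whose values in each library are given above. Ldha averaged 906 ± 72.2 CPM in HFD VAT and 651 ± 172 CPM in lean VAT (0.48 ± 0.20, interval 0.05 to 0.90, adjusted p = 0.560), where 3 lean libraries lay below all HFD ones and replicate 1 lay within their range. In LN it averaged 626 ± 147 CPM on HFD and 642 ± 108 CPM in lean mice (-0.04 ± 0.20), and the difference between the diet effects was 0.51 ± 0.28 (adjusted p = 0.875). Bnip3l averaged 279 ± 88.4 CPM in HFD VAT and 186 ± 41.8 CPM in lean VAT (0.59 ± 0.24, adjusted p = 0.556), and 280 ± 18.9 CPM in HFD LN and 305 ± 65.9 CPM in lean LN.

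Pdk1, Gapdh and Hif1a, which separated the tissues, gave diet values within 2 SE of 0. In VAT they were 0.46 ± 0.52, 0.09 ± 0.22 and 0.24 ± 0.41, in that order, and in LN 0.12 ± 0.52, -0.33 ± 0.22 and 0.30 ± 0.41. The 95% intervals in VAT ran from -0.65 to 1.58 for Pdk1, from -0.38 to 0.56 for Gapdh and from -0.65 to 1.13 for Hif1a. The fitted tissue effects on both diets lay outside all 3. The tissue intervals of Hif1a on both diets and of Gapdh in lean mice still overlapped these diet intervals. The comparisons of tissue and of diet share libraries.

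Both genes without overlap in LN had a library at 0 in one of the groups. Slc16a1 was 53.2, 31.5, 29.1 and 107 CPM in HFD LN, against 14.8, 26.7, 0 and 26.1 CPM in lean LN (1.71 ± 1.94, adjusted p = 1.00). Pfkfb4, which also makes the activator of phosphofructokinase, was 0.784, 4.85, 0 and 0 CPM in HFD LN, against 21.1, 18.2, 4.99 and 13.6 CPM in lean LN. In VAT Pfkfb4 was 1.90, 0, 0 and 3.24 CPM on HFD, against 0, 20.3, 28.9 and 20.3 CPM in lean mice, so that 3 of 4 lean libraries lay above all HFD ones and the remaining one was at 0. The log2 fold changes of Pfkfb4 were -3.36 ± 2.41 in LN and -3.76 ± 2.45 in VAT (adjusted p = 1.00 and 0.865). With libraries at 0, the fitted values of these genes depend on the prior count.

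**Figure D5:**
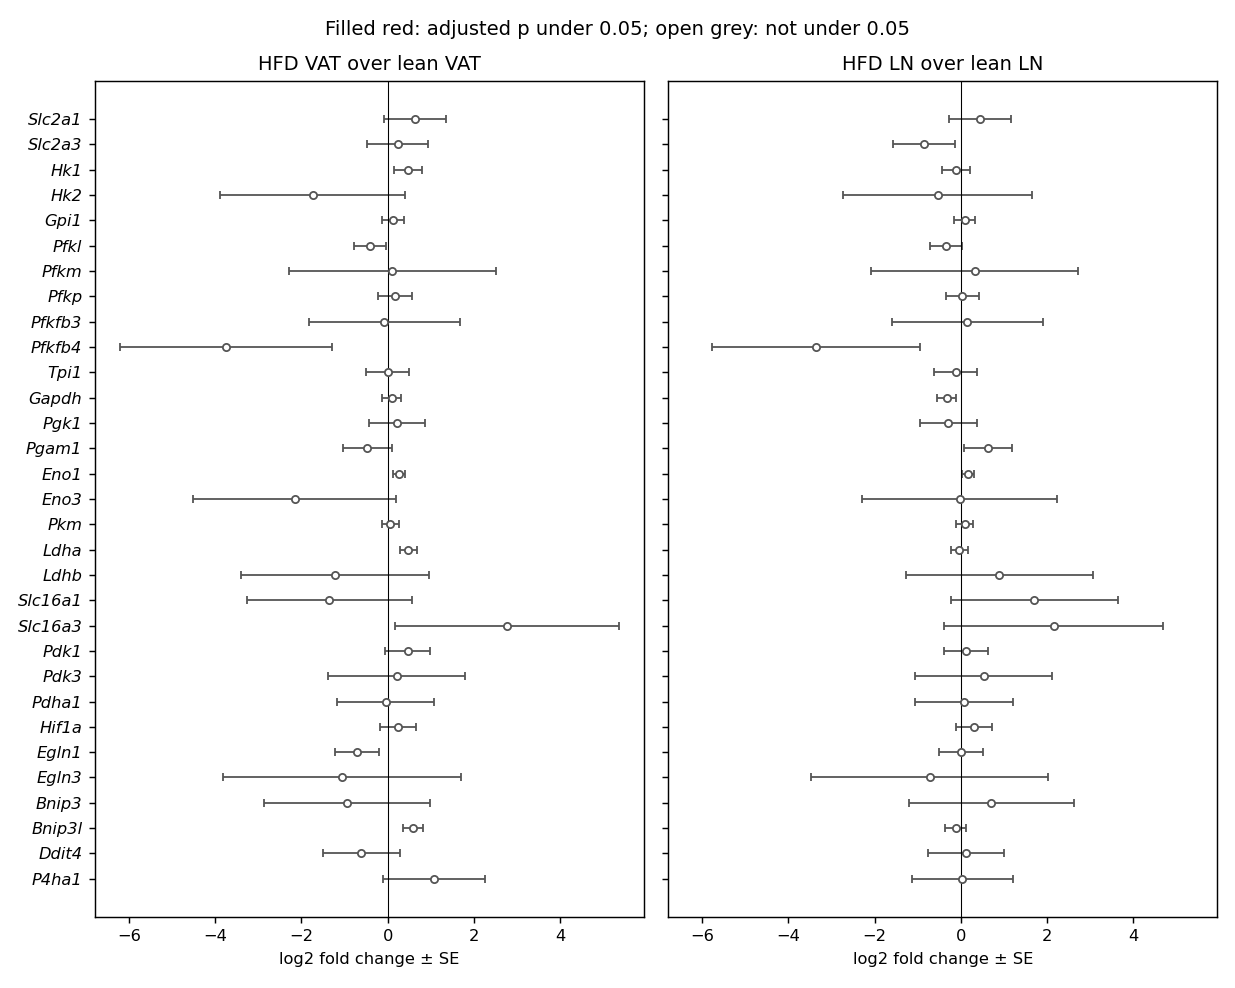
Log2 fold change ± SE (edgeR) of HFD over lean for the 31 genes tested, in VAT at the left and in LN at the right, in the order of the list. All points are open, since none passed an adjusted p of 0.05; Ldha (0.48) and Bnip3l (0.59) in VAT lie more than 2 SE above 0.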

How the data were processed

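Raw counts per gene of 16 RNA-seq libraries, as whole numbers with no normalisation, were deposited by the authors in 1 table of 54456 gene rows, whose 16 sample columns were all used. The tools and build, per the submitters' processing notes, were kallisto 0.42.4, DESeq2 and GRCh38, which is human, while the table names mouse genes; how estimates became whole counts is not given in the sources used here, so the coordinates above are RefSeq's and not the table's. The labels name 2 library kits and sequencers and, for growth, another cell type, so chemistry, read length and strandedness are not known, and no batch is given. The cDNA was amplified, and a read is therefore not an independent molecule.

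The counts were scaled by TMM, and genes passing filterByExpr with the 4 groups (15675) were tested with edgeR 4.0.16 (R 4.3.3; quasi-likelihood F-test with robust dispersions, common dispersion 1.52, 4 groups in 1 fit), with Benjamini-Hochberg adjustment over all genes tested and a threshold of 0.05. Standard errors are the fold change over the root of F. Alternatives were RLE and upper quartile scaling, DESeq2 1.42.0, voom with quality weights (limma 3.58.1), no filter or a stricter one (5 CPM in 4 libraries), fits of the compared groups alone, blocks by replicate number, each library left out and 3 VAT libraries left out. The pipeline was tested on simulated data. Python 3.11.15 with NumPy 2.4.6, pandas 2.3.3, SciPy 1.17.1 and Matplotlib 3.10.9 made the tables and plots.

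The 33 genes and the other lists were chosen with earlier results of these data known. Genes past the threshold are given in full, and others that reach 5 CPM in a group (30 of the 33 do) by their values. Genes of the other pathway lists are given only where they passed, apart from Pgd, Cited2 and Myc at the end. Aldoa and Ero1l were not found in the table under these names and are not analysed here.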

Additional observations from a re-analysis of the deposited data

Results flagged for a closer look

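In 17 of 128 groups of 4 libraries (the 31 genes tested and Txnip, in 4 groups), the gap between the highest or lowest library and the nearest of the others was, relative to the group's range, above Dixon's 95% critical value. Chance flags about 5% of groups when values are normally distributed, which CPM with many libraries at 0 are not. Where all libraries but 1 are at 0, as for Egln3 and Bnip3 in HFD VAT, the relative gap is always 1. The number of flags therefore cannot be read against that share.

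In HFD VAT, replicate 1 was the highest for Hif1a (442 CPM, against 239 to 273 CPM in the others) and for Pfkm (12.4 CPM, against at most 0.182 CPM). Replicate 4 was the highest for Hk2 (5.99 CPM), Eno3 (17.3 CPM), Ldhb (8.20 CPM) and Bnip3 (4.96 CPM), where the other libraries held at most 0.0683 CPM. Replicate 2 was the highest for Egln3 (8.15 CPM, the others at 0), and replicate 3 the lowest for Pdk3 (0 CPM, against 45.3 to 51.8 CPM).

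In HFD LN, replicate 1 was the highest for Hk2 (0.0171 CPM, from a single count), replicate 2 for Pfkfb4 (4.85 CPM) and Ddit4 (1.14 CPM), and replicate 4 for Slc16a3 (5.74 CPM, the others at 0). In lean VAT, replicate 1 was the lowest for Slc2a3 (5.61 CPM, against 161 to 189 CPM) and for Txnip (341 CPM, against 600 to 644 CPM). In lean LN, replicate 1 was the highest for Hk2 (0.0291 CPM), replicate 2 for Bnip3 (4.98 CPM, against 2.45 to 2.49 CPM) and replicate 4 for Slc16a3 (1.23 CPM, against at most 0.0193 CPM).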

How the results depend on the processing

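Over 160 fold changes (31 genes and Txnip in 5 comparisons) and 2921 alternative values, 20 lost and 20 gained a call, and 0 changed sign with a call on either side. Sign changes with no call on either side numbered 250, over 67 fold changes. The cause of the changes below was not tested.

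Genes of the 31 called between tissues on HFD (2) were 5 with DESeq2, 1 with no filter and 1 with the replicate block, and 1 to 2 with each library left out. In lean mice (1) they were 5 with DESeq2, 5 with voom, 3 with the 5 CPM filter, 2 with upper quartile scaling, 0 with only the groups compared and 0 with the replicate block, and 0 to 1 with each library left out. Over all genes, tissue calls on HFD (714) were 2578 with DESeq2 and 441 with no filter, and 483 to 632 with each library left out; in lean mice (476) they were 1569 with DESeq2 and 1350 with voom, and 325 to 492. Diet calls in VAT (9) were 769 with DESeq2, 32 with voom, 2 with no filter, 0 with only the groups compared, 1 with the replicate block and 62 without the 3 VAT libraries with many missing genes, and 3 to 40 with each library left out. Diet calls in LN (0) were 236 with DESeq2 and 3 with voom, and 0 to 1. The difference between the diet effects (3) gave 635 with DESeq2, 6 with voom, 1 with the 5 CPM filter, 1 with no filter, 1 with upper quartile scaling, 0 with the replicate block and 46 without the 3 VAT libraries, and 0 to 24.

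The labels give replicate numbers but no pairing, and of 24 pairs of same-numbered libraries 0 had correlated deviations above 0.1 (-0.0982 to 0.0446). Low correlations cannot tell whether VAT and LN libraries of the same number came from the same mice. With the numbers as a block Pdk1 had an adjusted p of 0.0874 on HFD and 0.0610 in lean mice, and no other call of these genes or Txnip was lost. Voom shifted the median of all genes by -0.157 for diet in VAT and -0.118 for the difference between diet effects, and other scalings by less than 0.1. Of 24 mean isoenzyme ratios, 2 moved by at least 1 SD with 5 counts added in place of 0.5. Genes below the limit of 3 counts per library cannot be ordered.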

Other observations

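A few genes of the related lists, chosen after their values were seen, missed the test. Each had the smallest adjusted p of its list in some comparison, as had other genes not given here. Pgd, an NADPH-making enzyme of the pentose phosphate pathway, had a log2 fold change of -1.46 ± 0.48 for VAT over LN on HFD (adjusted p = 0.114) and 0.39 ± 0.48 in lean mice (adjusted p = 0.916). For Cited2, a hypoxia-induced inhibitor of HIF-1, these values were -1.05 ± 0.36 (adjusted p = 0.124) and -0.32 ± 0.35 (adjusted p = 0.893). Myc, which encodes a transcription factor that drives glycolytic genes in activated T cells, had a log2 fold change of 1.57 ± 0.42 for HFD over lean in VAT (adjusted p = 0.350) and 0.61 ± 0.41 in LN (adjusted p = 1.00).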
